A study of Mus with 10 samples.

Results

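The genes described here encode the enzymes that write and erase methylation of histone H3 at lysine 27. They are the demethylase genes *Kdm6b* and *Kdm6a* and 6 genes of Polycomb repressive complex 2 (PRC2), *Ezh1*, *Ezh2*, *Eed*, *Suz12*, *Rbbp4* and *Rbbp7*. These 8 genes were taken by name from the 24564 genes of the deposited count table, and all 8 passed the filter on low counts that kept 11463 genes. The group was chosen by function and by values already seen, the Ncr1-KO against Ncr1-WT differences of these same libraries. Differences of the members are therefore given as descriptions without p-values.

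Type 1 innate lymphoid cells (ILC1s) were sorted from the livers of C57BL/6 mice, 6 to 8 weeks old and of either sex. In Ncr1gfp/gfp mice (labelled Ncr1-KO), *gfp* stands in the place of *Ncr1*, the gene of the activating receptor NKp46, in the whole animal. Ncr1+/+ mice (labelled Ncr1-WT) were the controls, and the labels name no treatment for either. The sort used NKp46 staining for Ncr1+/+ ILC1s and GFP for Ncr1gfp/gfp ILC1s, so that the genotypes also differed in a sort marker. There were 5 libraries per genotype, and the sources used here do not say how many mice gave RNA to a library, so that the spread between libraries may be partly technical.

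PRC2 adds methyl groups to lysine 27 of histone H3, a mark of silenced genes. *Ezh1* and *Ezh2* encode alternative catalytic subunits, *Suz12* the scaffold, *Eed* the subunit that reads the finished mark, and *Rbbp4* and *Rbbp7* closely related histone-binding proteins that PRC2 shares with other complexes. *Kdm6a* (UTX) and *Kdm6b* (JMJD3) encode JmjC-domain enzymes that take the mark off again. In lymphocytes this balance is known for its part in fixing effector programs, and *Kdm6b* is known as a gene that inflammatory stimuli induce in macrophages.

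*Kdm6b* was the member that differed between the genotypes. It was lower in every Ncr1gfp/gfp library, at 64.5% of the Ncr1+/+ mean, whereas *Kdm6a* and the PRC2 genes had means between 95.8% and 117% of those in Ncr1+/+ ILC1s. In all libraries the catalytic subunit with the higher level per length was *Ezh1*, and *Ezh2* was the lowest of the 8 genes by mean level per length.

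Library totals ranged from 15796253 to 22623133 counts and overlapped between the genotypes (exact permutation test of the mean totals, two-sided, p = 0.254). The count of the targeted gene *Ncr1*, scaled to library size by TMM normalization (CPM), was 1913 to 2144 CPM in Ncr1+/+ and 141 to 356 CPM in Ncr1gfp/gfp libraries. Among 8 ILC1 markers found in the table, *Itga1* (CD49a), *Tbx21*, *Cxcr6* and *Klrb1c* (NK1.1) all had a mean of at least 408 CPM in both genotypes, *Cd200r1* had means of 132 and 144 CPM, and *Il7r*, which encodes the IL-7 receptor, was called lower in Ncr1gfp/gfp (84.6 against 166 CPM, log2 fold change -0.97, adjusted p = 0.00773, edgeR). *Itga1* was higher in Ncr1gfp/gfp without overlap (log2 fold change 0.32, adjusted p = 0.000481, edgeR), with a smaller fold change than a call asks. *Tnfsf10* was at 0.09 (adjusted p = 0.427, edgeR). In all, 5 of the 8 markers were lower in Ncr1gfp/gfp, among them the targeted gene *Ncr1* itself, and 3 were higher. Of the NK cell markers, *Eomes* had a mean of 10.2 CPM or less, *Itga2* (CD49b) 49 CPM in Ncr1gfp/gfp and 40.5 CPM in Ncr1+/+, and *Itgam* (CD11b) 96.0 and 49.4 CPM. Hepatocyte markers, of which *Alb* is the defining one, stood highest in Ncr1gfp/gfp replicate 3 and Ncr1+/+ replicate 1, with 38.0 and 28.0 CPM of *Alb* against 4.69 CPM or less elsewhere. Counts of the 8 members themselves lay between 331 and 4858 in every library, far from the limit of detection.

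The demethylase gene *Kdm6b* is listed at positions 69212020 to 69227177 of chromosome 11, minus strand, with 6644 bases of exon, in the coordinates of the table. The methods name mm10 as the mapping genome, but the listed starts of all 8 members differ from those in GRCm38.p6, so that positions are given here as the table lists them. No other listed gene overlaps it. Its level was 157, 142, 122, 149.9 and 122 CPM in Ncr1+/+ replicates 1 to 5 and 85.5, 79.4, 93.4, 97.7 and 90.5 CPM in Ncr1gfp/gfp replicates 1 to 5. The lowest Ncr1+/+ library thus stood above the highest Ncr1gfp/gfp library. Ncr1gfp/gfp ILC1s averaged 89.3 ± 7.08 CPM, Ncr1+/+ ILC1s averaged 138 ± 16 CPM (SD over 5 libraries of each), and the fitted log2 fold change was -0.63 (standard error 0.08, 95% interval -0.80 to -0.46).

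A gene was called when its adjusted p-value was under 0.05 and its fold change above 1.5 or below 0.7. By this rule, 1 of the 8 members was called, *Kdm6b*, lower in Ncr1gfp/gfp ILC1s, where 0.733% of the 11463 tested genes were called in either direction and 0.532% were called lower and 0.201% higher. By adjusted p-value alone, 0.785% of all tested genes were lower and 0.567% higher. *Kdm6b* was also the single member without overlap between the genotypes, against 3.11% of all tested genes (1.82% lower and 1.28% higher). Since this contrast was known when the genes were grouped, nothing is read from these counts. *Kdm6b* kept its call in all 19 other fits that were run, 10 of which omitted a single library, with log2 fold changes from -0.68 to -0.58. These fits reuse the libraries in which the difference was first seen. They show only how far the value depends on the processing and on single libraries. Under a threshold of an absolute log2 fold change above 1, which 0.201% of all tested genes passed, no member was called.

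**Figure D1:**
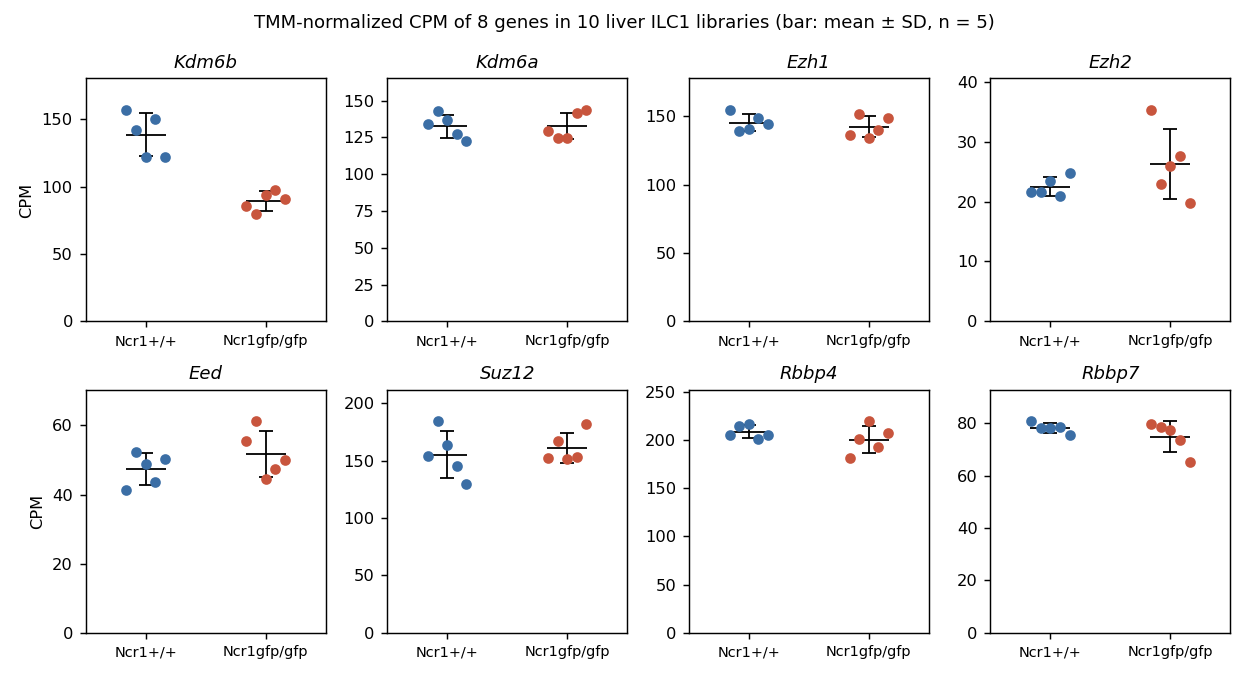
CPM of each gene (vertical axis, starting at 0) in the 5 Ncr1+/+ (blue) and 5 Ncr1gfp/gfp (red) libraries, 1 point per library with replicates 1 to 5 from left to right, and bars for mean ± SD. *Kdm6b* separates the genotypes, with 79.4 to 97.7 CPM against 122 to 157 CPM, and in the other 7 genes the points overlap.

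The other H3K27 demethylase gene, *Kdm6a*, lies on the X chromosome from 17739701 to 17857062 on the plus strand. It had 134, 143, 137, 127 and 123 CPM in Ncr1+/+ replicates 1 to 5 and 129.6, 125, 125, 141 and 144 CPM in Ncr1gfp/gfp replicates 1 to 5. High and low libraries were found in both genotypes. Its log2 fold change was 0.00 (standard error 0.07), and the 95% interval from -0.14 to 0.14 leaves room for a change of that size in either direction. *Kdm6a* has a copy on the Y chromosome, *Uty*, which encodes a protein with little demethylase activity.

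*Uty* and the Y-linked genes *Ddx3y*, *Kdm5d* and *Eif2s3y* were present in all 10 libraries, at 41.7 CPM or more. *Xist*, the RNA that silences the second X chromosome in female cells, ranged from 0 to 1.09 CPM, and had no count in 3 libraries, where 3 counts correspond to between 0.137 and 0.19 CPM. All 10 libraries thus carried the sex-linked pattern of male cells, in a study whose mice are described as of either sex. *Uty* had 52.8 ± 9.27 CPM in Ncr1gfp/gfp and 45.2 ± 2.79 CPM in Ncr1+/+ ILC1s. Its log2 fold change of 0.22 (standard error 0.10) did not pass the test (adjusted p = 0.413, edgeR).

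Set against each other per kilobase of exon, the demethylase genes stood in a different ratio in each genotype. *Kdm6a* was 1.67 ± 0.115 times as high as *Kdm6b* in Ncr1gfp/gfp ILC1s (1.49 to 1.78) and 1.08 ± 0.129 times as high in Ncr1+/+ ILC1s (0.952 to 1.26; SD, n = 5 each). *Kdm6b* made up 37.5 ± 1.66% of the sum of both genes in Ncr1gfp/gfp and 48.1 ± 2.97% in Ncr1+/+ libraries. The ratio moved with *Kdm6b*, since *Kdm6a* had a mean of 133 CPM in both genotypes.

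Of the catalytic subunits of PRC2, *Ezh1* is the one found in resting cells and *Ezh2* the one associated with dividing cells. *Ezh1*, on chromosome 11 from 101052429 to 101087777, had 154, 139, 140.4, 149 and 144 CPM in Ncr1+/+ replicates 1 to 5 and 136, 152, 134, 139.8 and 149 CPM in Ncr1gfp/gfp replicates 1 to 5. The libraries of both genotypes were interleaved, with a log2 fold change of -0.03 (standard error 0.06, 95% interval -0.16 to 0.10). *Ezh2*, on chromosome 6 from 47480273 to 47545029, had 21.5, 21.7, 23.4, 21 and 24.8 CPM in Ncr1+/+ replicates 1 to 5 and 35.2, 23.0, 26.0, 27.6 and 19.7 CPM in Ncr1gfp/gfp replicates 1 to 5. The Ncr1gfp/gfp libraries held both the highest and the lowest value, with a coefficient of variation of 22.2% against 7.01% in Ncr1+/+ libraries.

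The log2 fold change of *Ezh2* was 0.23 (standard error 0.13, 95% interval -0.05 to 0.50), the highest of the 8 members, and it was 0.10 without Ncr1gfp/gfp replicate 1. Per kilobase of exon, *Ezh1* stood 3.58 ± 0.911 times above *Ezh2* in Ncr1gfp/gfp and 4.12 ± 0.391 times above it in Ncr1+/+ libraries, with ranges of 2.45 to 4.78 and 3.68 to 4.54 that overlapped. *Ezh2* thus supplied 22.5 ± 4.53% and 19.6 ± 1.5% of the summed level of both catalytic genes, in that order.

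The core subunits *Eed* and *Suz12* are needed for the activity of either catalytic subunit. *Eed*, on chromosome 7 from 97103164 to 97129486, had 41.4, 52.4, 48.9, 43.5 and 50.3 CPM in Ncr1+/+ replicates 1 to 5 and 55.6, 61.2, 44.6, 47.5 and 49.9 CPM in Ncr1gfp/gfp replicates 1 to 5. Replicates 1 and 2 of Ncr1gfp/gfp were the highest, and the others lay within the Ncr1+/+ range (log2 fold change 0.13, standard error 0.10, 95% interval -0.07 to 0.33). *Suz12*, on chromosome 11 from 79806608 to 79847625, had 154, 184, 164, 145 and 129 CPM in Ncr1+/+ replicates 1 to 5 and 152, 167, 152, 153 and 182 CPM in Ncr1gfp/gfp replicates 1 to 5. Every Ncr1gfp/gfp value of *Suz12* lay inside the Ncr1+/+ range, with a log2 fold change of 0.05 (standard error 0.08, 95% interval -0.12 to 0.22).

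The histone-binding subunits *Rbbp4* and *Rbbp7* also serve in the NuRD and SIN3 deacetylase complexes and in chromatin assembly. *Rbbp4*, on chromosome 4 from 128984344 to 129012614, had the highest level of the 8 genes, with 205, 214, 216, 201 and 205 CPM in Ncr1+/+ replicates 1 to 5 and 181, 201, 219, 193 and 207 CPM in Ncr1gfp/gfp replicates 1 to 5. *Rbbp7*, on the X chromosome from 159198304 to 159217022, had 80.6, 78.2, 78.0, 78.4 and 75.4 CPM in Ncr1+/+ replicates 1 to 5 and 79.6, 78.5, 77.6, 73.6 and 65.1 CPM in Ncr1gfp/gfp replicates 1 to 5. Both overlapped between the genotypes, and the lowest library was from Ncr1gfp/gfp ILC1s in each case. Their log2 fold changes were -0.06 (95% interval -0.18 to 0.07) for *Rbbp4* and -0.06 (95% interval -0.21 to 0.09) for *Rbbp7*. *Rbbp7* overlaps *Txlng* on the opposite strand, which had at most 652 counts in a library, and counting with HTSeq defaults assigns reads by strand, but whether the library kit marks strand is not given in the sources used here.

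**Figure D2:**
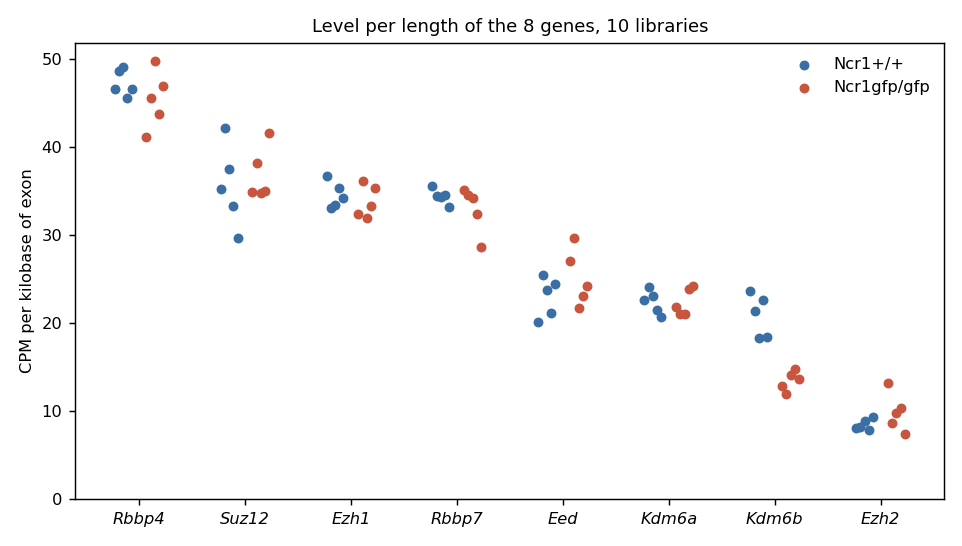
CPM per kilobase of exon for each gene in the 10 libraries, by genotype. Mean levels run from 46.3 for *Rbbp4* to 9.15 for *Ezh2*, and *Kdm6b* is the gene in which the genotypes separate.

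Ordered by level per kilobase of exon, the means over 10 libraries were 46.3 ± 2.57 for *Rbbp4*, 36.2 ± 3.78 for *Suz12*, 34.1 ± 1.62 for *Ezh1*, 33.7 ± 1.97 for *Rbbp7*, 24 ± 2.86 for *Eed*, 22.4 ± 1.35 for *Kdm6a*, 17.1 ± 4.27 for *Kdm6b* and 9.15 ± 1.69 for *Ezh2* CPM per kilobase (SD). The catalytic subunit *Ezh1* was therefore close to *Suz12*, whereas *Ezh2* was the sparsest. *Rbbp4* exceeded 87.8% of all tested genes by this level and *Ezh2* 44.2%.

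Neighbours in this order were compared library by library with a two-sided exact permutation test (paired sign flips, n = 10, p-values adjusted over 7 pairs, smallest possible p = 0.00195). The order was read from these same libraries, so that the pairs and the direction of each difference were not set in advance. The p-values cover the spread over libraries and no error in the listed exon lengths. *Rbbp4* stood above *Suz12* by 0.36 on the log2 scale, in 10 of 10 libraries (exact p = 0.00195, adjusted 0.00684). *Rbbp7* stood above *Eed* by 0.49, also in 10 of 10 libraries (exact p = 0.00195, adjusted 0.00684). *Suz12* and *Ezh1* differed by 0.08 (exact p = 0.162, adjusted 0.189), *Ezh1* and *Rbbp7* by 0.02 (exact p = 0.668) and *Eed* and *Kdm6a* by 0.10 (exact p = 0.158, adjusted 0.189), none beyond the spread over the 10 libraries. By genotype, *Suz12* stood above *Ezh1* by 0.12 in Ncr1gfp/gfp, in 5 of 5 libraries, and by 0.03 in Ncr1+/+ ILC1s, in 2 of 5; with 5 libraries this exact test cannot go below p = 0.0625.

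The place of *Kdm6b* in the order is a description, since the gene was chosen for its difference. *Kdm6a* stood above *Kdm6b* by 0.11 on the log2 scale in Ncr1+/+, in 3 of 5 libraries, and by 0.74 in Ncr1gfp/gfp ILC1s, in 5 of 5. *Kdm6b* stood above *Ezh2* by 1.30 in Ncr1+/+ and by 0.47 in Ncr1gfp/gfp ILC1s, in 5 of 5 and 4 of 5 libraries. In Ncr1gfp/gfp ILC1s the level of *Kdm6b* thus lay nearer to that of *Ezh2* than to that of *Kdm6a*.

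The question of whether other genes that act with these enzymes differed was put to 7 lists of chromatin genes, holding 93 genes of which 90 were tested. By edgeR none was called and none had an adjusted p-value under 0.05, against 0.733% called among all tested genes, and 10 had an unadjusted p-value under 0.05. The directions were even, with 45 genes higher and 45 lower in Ncr1gfp/gfp ILC1s, and the median log2 fold change was 0.00, as over all tested genes. The log2 fold changes ran from -0.50 to 0.27. In 4 of the 90 genes (4.44%) the genotypes did not overlap, against 3.11% of all tested genes.

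Accessory subunits of PRC2 steer the complex to its targets. Of 9 listed, 8 were tested, with 4 higher and 4 lower. *Mtf2*, which encodes a Polycomb-like protein that recruits PRC2, had 69.6, 69.4, 68.5, 74.8 and 65.6 CPM in Ncr1+/+ replicates 1 to 5 and 83.8, 83.4, 77.2, 82.4 and 81.3 CPM in Ncr1gfp/gfp replicates 1 to 5. All Ncr1gfp/gfp libraries stood above all Ncr1+/+ libraries, but the log2 fold change of 0.23 did not pass the test (adjusted p = 0.106, edgeR). *Jarid2*, the JmjC-family cofactor of PRC2, had a log2 fold change of 0.03. The value farthest from 0 in the list was that of *Epop*, at -0.41 (4.77 against 6.34 CPM, adjusted p = 0.508, edgeR).

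No gene of the complexes that counter or follow the H3K27 mark passed the test. Of 22 genes of PRC1, which ubiquitinates histone H2A at silenced genes, 12 were higher and 10 lower, and none passed the test; *Bmi1* was at 0.27 on the log2 scale (adjusted p = 0.347, edgeR) and *Kdm2b*, a demethylase that brings PRC1 to CpG islands, -0.24 (adjusted p = 0.181, edgeR). Among 5 tested H2A deubiquitinase genes, *Mysm1* had 0.18 (adjusted p = 0.227, edgeR) and did not overlap between the genotypes. *Ep300* and *Crebbp*, the acetyltransferases that modify the same lysine, had 0.03 (adjusted p = 0.889, edgeR) and 0.01 (adjusted p = 0.973, edgeR). The 16 genes of the H3K4 methyltransferase complexes, a list that includes the partners of *Kdm6a*, ran from -0.10 to 0.09, with 4 higher and 12 lower.

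The other demethylase and JmjC genes, 23 tested of 24, ran from -0.50 for *Kdm4d* (adjusted p = 0.532, edgeR) to 0.22 for *Uty*, with 10 higher and 13 lower. None had a lower log2 fold change than *Kdm6b*, which is a description, since that gene was chosen with its difference known. *Phf8* at -0.16 (adjusted p = 0.227, edgeR) and *Kdm2a* at 0.13 (adjusted p = 0.300, edgeR) did not overlap between the genotypes. The 15 NuRD, SIN3 and CAF-1 genes that share *Rbbp4* or *Rbbp7* ran from -0.05 to 0.25, 10 of them higher.

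**Figure D3:**
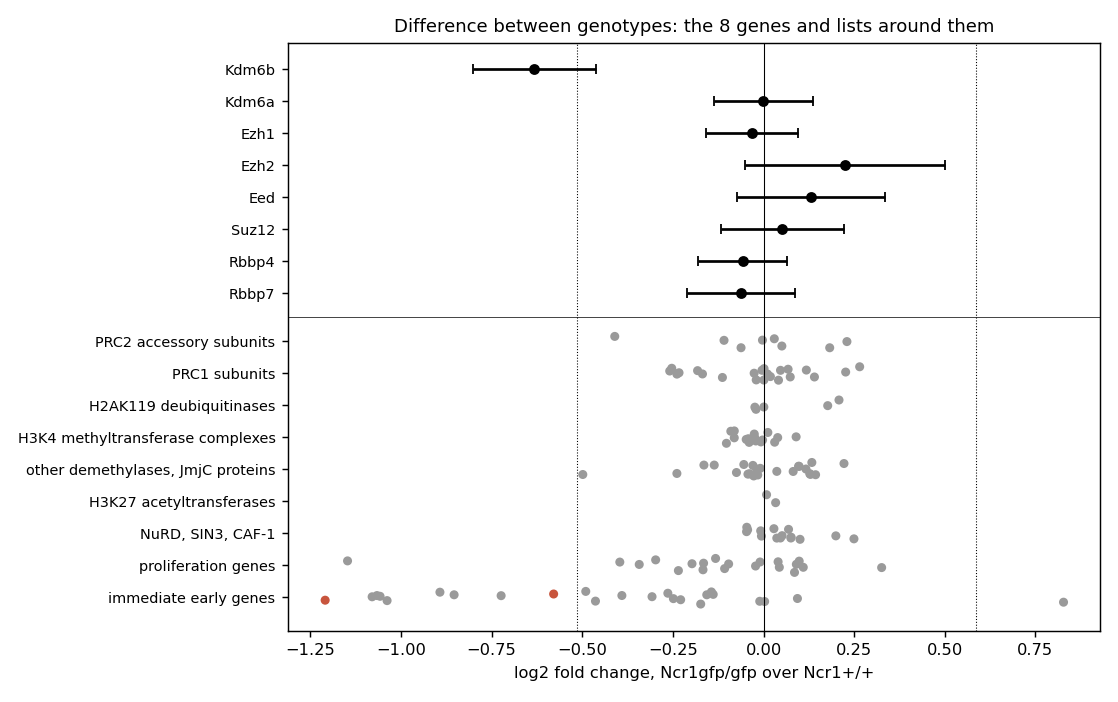
Log2 fold changes, Ncr1gfp/gfp minus Ncr1+/+, of the members with 95% intervals and of the genes of each list as points, red where called. Dotted lines mark fold changes of 0.7 and 1.5. *Kdm6b* lies at -0.63, the other members lie between -0.06 and 0.23, and the 90 chromatin genes hold no called gene.

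The *Hox* and *Cdkn2* genes are classic targets of PRC2. Of 41 listed, 5 were tested and 16 had no count in any library. Their summed level was 3.79 to 10.0 CPM in Ncr1gfp/gfp and 7.29 to 20.4 CPM in Ncr1+/+ libraries, of which the highest without Ncr1+/+ replicate 3 was 11.2 CPM. *Hoxb4* had 2.48 CPM in Ncr1gfp/gfp and 4.64 CPM in Ncr1+/+ ILC1s, a log2 fold change of -0.91 that did not pass the test (adjusted p = 0.353, edgeR).

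Genes that cells switch on quickly after a stimulus or during tissue dissociation mostly had lower mean values in Ncr1gfp/gfp ILC1s. Of 24 immediate early and dissociation genes, 21 were lower and 3 higher in Ncr1gfp/gfp ILC1s, with a median log2 fold change of -0.35 against 0.00 over all tested genes. Called lower were *Zfp36*, which encodes a protein that destabilises cytokine mRNAs (-0.58, adjusted p = 0.0179, edgeR), and *Fos*, which encodes a subunit of AP-1 (-1.21, adjusted p = 0.0377, edgeR). *Nr4a3* (-0.49, adjusted p = 0.0175, edgeR) and *Junb* (-0.46, adjusted p = 0.0334, edgeR) had adjusted p-values under 0.05 but smaller fold changes than the rule asks. Without Ncr1+/+ replicate 1, none of the 24 was called.

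The summed level of the 24 genes was 6237, 5761, 4739, 5091 and 3449 CPM in Ncr1+/+ replicates 1 to 5 and 3712, 4109, 3712, 4574 and 3595 CPM in Ncr1gfp/gfp replicates 1 to 5. The 4 highest sums were from Ncr1+/+ libraries and the lowest from Ncr1+/+ replicate 5, so that the genotypes overlapped. The part of the immediate early genes in the *Kdm6b* difference was not tested.

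**Figure D4:**
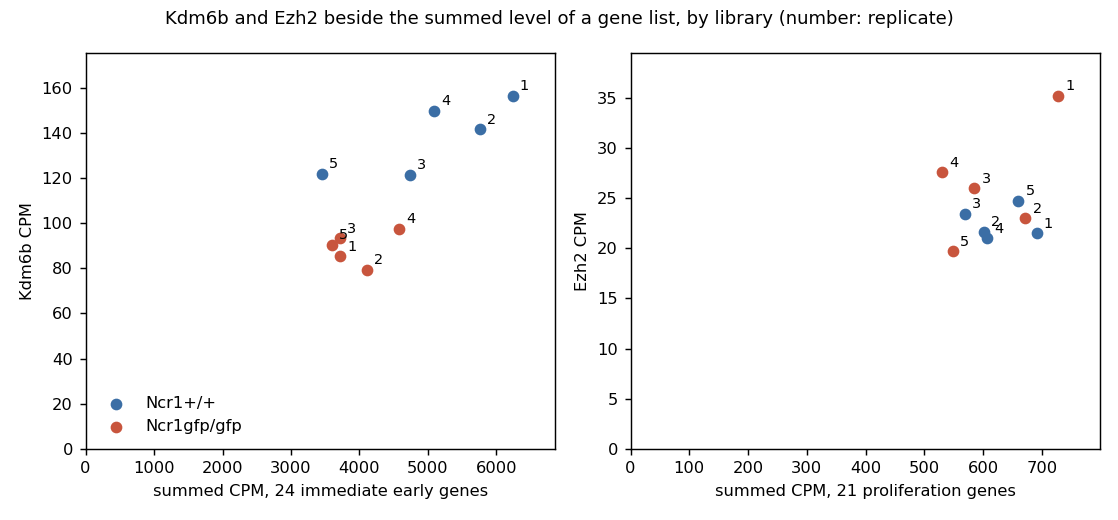
Left, *Kdm6b* CPM against the summed CPM of 24 immediate early and dissociation genes; right, *Ezh2* CPM against the summed CPM of 21 proliferation genes, 1 point per library and coloured by genotype. The immediate early sums span 3449 to 6237 CPM in Ncr1+/+ and 3595 to 4574 CPM in Ncr1gfp/gfp libraries, and the proliferation sums of the genotypes overlap as well.

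Proliferation genes were set beside *Ezh2*. Of 21 listed, 20 were tested, 7 were higher and 13 lower, and none had an adjusted p-value under 0.05. Their summed level was 691, 601, 569, 606 and 659.8 CPM in Ncr1+/+ replicates 1 to 5 and 727, 672, 585, 529.9 and 549 CPM in Ncr1gfp/gfp replicates 1 to 5. Ncr1gfp/gfp replicate 1 had both the highest sum and the highest *Ezh2* level. Other libraries did not follow this order. Ncr1gfp/gfp replicate 4 had the lowest sum but 27.6 CPM of *Ezh2*, above every Ncr1+/+ library. Ncr1+/+ replicate 1, with a sum of 691 CPM, had 21.5 CPM of *Ezh2*. *Mki67*, a marker of dividing cells, was highest in Ncr1+/+ replicate 1, at 101 CPM.

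Some T cell markers and an NK cell marker were higher in Ncr1gfp/gfp libraries. Of 7 T cell markers, 5 were tested and all 5 had higher values in Ncr1gfp/gfp ILC1s, with *Cd3e* (1.88, adjusted p = 0.00235, edgeR) and *Cd8a* (1.53, adjusted p = 0.0248, edgeR) called. The summed level of the list was 633 to 835 CPM in Ncr1gfp/gfp and 461 to 579 CPM in Ncr1+/+ libraries, of which *Cd3g* was the greater part. *Cd3e* itself ranged from 9.05 to 38.8 CPM in Ncr1gfp/gfp and from 2.80 to 6.85 CPM in Ncr1+/+ libraries. Of 6 NK cell markers, 5 were tested and *Itgam* was called higher (0.96, adjusted p = 5.59e-05, edgeR), with summed levels of 136 to 210.5 CPM against 98.8 to 119.7 CPM. The greatest part of these sums was *Itgam* itself, with means of 96.0 and 49.4 CPM. By direction 4 were higher and 1 lower, *S1pr5* at -0.30 (adjusted p = 0.828, edgeR). All 8 macrophage markers had lower values in Ncr1gfp/gfp libraries (median log2 fold change -0.40), none passing the test, with summed levels of 10.2 to 50.7 CPM against 15.9 to 77.9 CPM. No B cell, hepatocyte or endothelial marker passed the test either. The part of these cells in the *Kdm6b* difference was not tested, and in bulk RNA fewer cells of a type and less RNA per cell cannot be told apart.

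Without Ncr1+/+ replicate 1 and Ncr1gfp/gfp replicate 3, the libraries high in hepatocyte markers, the log2 fold change of *Kdm6b* was -0.60 and still called.

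The genes whose profile over the 10 libraries was most like that of *Kdm6b* were sought among all tested genes by the root mean square difference of centred log2 CPM, for which the median over all genes was 0.39. The nearest were *Gramd4* at 0.13, *Gna15* and *Pisd-ps2* at 0.14, and 2310039H08Rik and *Csrnp1* at 0.15. *Gna15*, which encodes a G protein alpha subunit, had a log2 fold change of -0.66, a value that likeness to *Kdm6b* largely fixes and that is therefore given without a test. Nearest to *Ezh2* were *Phtf1* at 0.10, *Ifih1*, which encodes an RNA sensor, at 0.11 and *Zfp318* at 0.13, with a median over all genes of 0.30. *Pisd-ps2* is named as a pseudogene, and its count may be affected by sequence shared with its parent gene.

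Listed genes near *Kdm6b* on chromosome 11 did not pass the test. *Naa38*, 1847 bases away, differed by 0.15 on the log2 scale (adjusted p = 0.845, edgeR) and *Cyb5d1*, 3172 bases away, -0.39 (adjusted p = 0.701, edgeR). On the other side, *Wrap53*, 148079 bases away, had 0.06 (adjusted p = 0.930, edgeR) and *Trp53*, 166684 bases away, -0.13 (adjusted p = 0.549, edgeR).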

How the data were processed

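RNA of sorted liver ILC1s was amplified and sequenced by the authors, 5 libraries per genotype. Per the study's methods, reads were trimmed, aligned to mm10 with STAR and counted per gene with HTSeq, whose default settings assign reads by strand and discard multi-mapping reads, and the authors deposited raw counts per gene. The listed coordinates differ from that build: 0 of the 8 members share their start with GRCm38.p6, and positions are given as listed. Counts on sample columns were used as deposited. Groups were taken from the labels.

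Genes were filtered with filterByExpr, scaled by TMM and tested with edgeR 4.0.16 (quasi-likelihood, Benjamini-Hochberg adjustment over 11463 genes) in R 4.3.3. Levels are CPM, and levels between genes are CPM per kilobase of exon. Library totals of 15796253 to 22623133 counts set the precision of low genes.

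The members and lists were chosen with earlier results of these data known. The rule for named genes took the members, *Ncr1*, the sex-linked genes, called genes of the lists with up to 3 more per list by smallest p, and the 5 profiles nearest to *Kdm6b* and 3 nearest to *Ezh2*. Other genes (*Jarid2*, *Kdm4d*, *Mki67*, *Txlng*, *Alb*, *Eomes*, *Itga2*, *S1pr5*, *Cd3g*, the ILC1 markers, list genes without overlap and the neighbours of *Kdm6b*) were named after their values were seen. Alternatives were DESeq2 1.42.0, limma 3.58.1 voom, a likelihood ratio test, other filters and thresholds, a replicate block and leaving out each library. Leaving out Ncr1+/+ replicate 1 and Ncr1gfp/gfp replicate 3 together was chosen after seeing the data. The scripts were tested on simulated data. No sequences were used here.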

Additional observations from a re-analysis of the deposited data

Results flagged for a closer look

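Dixon's test was applied to 140 groups of 5 libraries, of which chance flags about 7, and 8 were flagged, none for a member. In each, 1 library stood apart from the other 4. *Ep300* was low in Ncr1+/+ replicate 5, at 419 CPM against 453 CPM in the nearest library. *Gramd4* was low in Ncr1gfp/gfp replicate 2, at 80.7 CPM against 88.2 CPM. 2310039H08Rik was high in Ncr1+/+ replicate 1, at 7.57 CPM against 5.82 CPM. In Ncr1gfp/gfp replicate 1, the library with the highest *Ezh2* level, *Mcm4* was high at 137 CPM against 113 CPM. There, *Ifih1* stood at 77.7 CPM against 55.7 CPM and *Zfp318* at 398 CPM against 295 CPM. *Ifih1* and *Zfp318* were named for likeness to *Ezh2*, and *Gramd4* and 2310039H08Rik for likeness to *Kdm6b*. That these genes stood apart in the same libraries as the gene they resemble follows from that choice. The summed hepatocyte markers were high in Ncr1gfp/gfp replicate 3, at 206 CPM against 146 CPM, and in Ncr1+/+ replicate 1, at 179 CPM against 146 CPM.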

How the results depend on the processing

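The log2 fold change of *Kdm6b* lay between -0.68 and -0.58 in 19 other fits and was called in all 19; the other 7 members kept their side of the threshold in the same fits. With an absolute log2 fold change above 1 as the threshold, 0 members, 1 gene of the pathway lists and 23 genes in all were called. Of all tested genes, 84 were called, against 128 with DESeq2, 138 with the likelihood ratio test, 131 without a filter, 155 by adjusted p alone and 60 to 98 with a library left out. Of the pathway list genes 2 were called, against 1 with DESeq2, 1 with voom, 5 with the likelihood ratio test, 6 without a filter, 4 with a minimum of 10 counts, 4 by adjusted p alone, 0 without Ncr1+/+ replicate 1 and Ncr1gfp/gfp replicate 3, and 0 (without Ncr1+/+ replicate 1) to 6 (without Ncr1+/+ replicate 5) with a library left out. The adjusted p-value was no longer under 0.05 in 11 of 19 fits for *Fos* and in 3 for *Zfp36*. The log2 fold change of *Zfp36* ranged from -0.68 to -0.38, and a call asks for less than -0.51. The cause was not tested. Replicate numbers did not pair the libraries (correlations of same-numbered libraries -0.02 to 0.04); with the replicate block, 87 genes, 1 member and 3 list genes were called and *Kdm6b* had -0.63. Values near 0 changed sign with a library left out, over ranges of -0.0052 to 0.052 for *Ep300*, -0.015 to 0.032 for *Crebbp* and -0.045 to 0.026 for *Eif2s3y*, and without the pair high in hepatocyte markers they were 0.0073 for *Asxl1* and 0.010 for *Eif2s3y*.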
